A study of Mus musculus with 4 samples.

Results

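Rps18-ps4, Pitpnm2, Sycp1 and D630041G03Rik are 4 mouse genes whose read counts were near 0 in at least 1 of 4 heart libraries and clearly above 0 in another. They were chosen by those same counts, so every on-off contrast below describes the choice and is no test of it. They are 4 of 25004 genes in the count tables, 9344 of them with at least 1 count, and they take up 5 of the 41449 transcript rows. The question is how each split falls on the labels of the 4 libraries: along the strain, along the genotype, or on a single pool.

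Each library was made from 3 whole hearts combined at 12 weeks of age, and each group has 1 library. The library called NTG came from nontransgenic mice and the library called dC10mut from cMyBP-CΔC10mut mice, which carry a transgene of MYBPC3 with a 25bp variant and model hypertrophic cardiomyopathy; both are labelled C57BL/6. The library called control came from control mice and the library called tt from cMyBP-C(t/t) mice, a model of dilated cardiomyopathy; both are labelled FvB/N. The promoter of the transgene, the sexes of the mice and the makeup of each pool are not given in the sources used here. A pool yields 1 value for its 3 hearts, so a high or low count cannot be assigned to 1 heart or to all of them. Without replicate libraries there is no estimate of the spread within a group, and all intervals cover counting error only.

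The libraries were shallow, with totals of 170543 (NTG), 187365 (dC10mut), 176633 (control) and 186420 (tt) counts. Between 6725 and 6989 genes had a count in each. Mybpc3, the gene behind both models, held 344, 368, 266 and 412 counts in the same order, and its counts do not separate alleles. Of 10 cardiomyocyte markers 8 were counted, with summed counts of 4235 to 6170 per library. Among them Myl2, the ventricular myosin light chain, held 2405 to 3520 counts, whereas the defining markers Tnnt2 and Myl3 were at 0 in all 4 libraries, and Myh6 and Mb never exceeded 1 count. Genes whose exons face those of a gene on the other strand are 21% of the genes placed on the annotation and held 64.4% to 68.1% of the counts of a library. The kit is a stranded one, but whether reads were counted by strand is not given in the sources used here. For such genes, reads of the 2 strands may therefore not have been separated, or may have been assigned to the gene on the other strand. Neither was tested.

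The 4 genes have unlike backgrounds. Rps18-ps4 carries the name of a pseudogene of Rps18, a protein of the small ribosomal subunit. Ribosomal protein mRNAs are among the most abundant messages of a cell, and reverse-transcribed copies of them, called processed pseudogenes or retrocopies, are scattered over mammalian genomes. Such copies are nearly identical to the parent message, so a short read often matches several places. Pitpnm2 encodes a membrane-associated phosphatidylinositol transfer protein, a relative of the Drosophila retinal degeneration B protein, which moves phosphatidylinositol between membranes at contact sites and so helps to refill the lipid that phospholipase C consumes. Sycp1 encodes the transverse filament of the synaptonemal complex, which holds paired chromosomes together in meiosis and is a germ cell structure. D630041G03Rik is a long noncoding RNA with no role known well enough to state here.

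The sequence behind Rps18-ps4 is shown first, because much of it has near-identical copies elsewhere. In GRCm38, the Rps18-ps4 transcript lies on chromosome 13 from 97751112 to 97760965 on the plus strand, with 3 exons and 1073 bp in all; GENCODE lists this locus as Gm26619, a long noncoding RNA. On the opposite strand of its last exon sits Gm10260 (Rps18-ps6 in RefSeq), a retrocopy of Rps18 from 97760072 to 97760632, which is not a row of the count tables. Of the 1073 bp, 541 bp (50.4%) face Gm10260. The coding sequences of Gm10260 and of Rps18, on chromosome 17, are both 456 bp long and differ at 4 positions (99.12% identity). With positions counted from 1 at the A of the start codon and the Rps18 base first, these are T186C, A337C, G371A and G431A. The longest stretch without a difference is 185 bp. Positions 282 to 431 of both coding sequences are given below in the direction of the message, with the 3 differing bases in capitals. The Rps18-ps4 transcript holds the reverse complement of the Gm10260 line.

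Rps18: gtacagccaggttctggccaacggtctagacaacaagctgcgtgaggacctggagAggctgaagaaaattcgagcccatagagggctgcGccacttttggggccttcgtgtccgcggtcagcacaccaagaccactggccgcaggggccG
Gm10260: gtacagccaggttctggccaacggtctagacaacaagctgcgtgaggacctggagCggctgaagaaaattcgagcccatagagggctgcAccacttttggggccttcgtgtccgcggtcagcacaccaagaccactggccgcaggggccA

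The 2 lines are the same but for the capitals. Of the 1024 windows of 50 bases in the Rps18-ps4 transcript, 494 (48.2%) also occur in a transcript of another gene on either strand, and 324 occur in genes elsewhere in the genome, 12 genes in all. Rps18 itself shares 290 of them (28.3%), all on the strand opposite to Rps18-ps4. Conversely, 443 of the 511 windows of the Rps18 message (86.7%) occur in another gene.

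Rps18-ps4 had a single count (1) in NTG, against 814 in dC10mut, 641 in control and 665 in tt. The exact 95% Poisson intervals of these counts are 0.0253 to 5.57, 759 to 872, 592 to 693 and 615 to 718. Only NTG is low, and the other 3 intervals lie far above it. On the CPM scale, which divides counts by the scaled library total, the levels were 6.23, 4350, 3520 and 3450. In the 3 libraries that have it, the gene took 0.434% (dC10mut), 0.363% (control) and 0.357% (tt) of all counts. The split follows neither the strain, since the C57BL/6 libraries held 1 and 814 counts, nor the genotype, since the control libraries NTG and control held 1 and 641. It sets a single pool apart.

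Folds are given here as the plain ratio of scaled counts, and log2 ratios with a prior count of 0.5 added to both libraries, which pulls them towards 0 where a library holds 1 count. The log2 of a plain fold is therefore larger than the log2 ratio beside it. The intervals are those of the plain ratio. Against NTG, the plain ratio of Rps18-ps4 was 697-fold in dC10mut, with an interval from 125-fold to 27600-fold, 565-fold in control and 554-fold in tt. With the prior count, the log2 ratios were 8.9 (plain interval on the log2 scale 6.96 to 14.75), 8.59 (6.66 to 14.45) and 8.57 (6.63 to 14.42). With a prior count of 2, the first of these became 7.94 and that of control over NTG 7.62. All 3 folds rest on a single count in NTG, so their size is poorly fixed. Within the FvB/N libraries the gene did not differ beyond counting error: the log2 ratio of tt over control was -0.03 (-0.19 to 0.13). It was 1.26-fold lower in tt than in dC10mut (log2 ratio -0.33, -0.48 to -0.18) and 1.23-fold lower in control than in dC10mut (-0.3, -0.45 to -0.15), which exceeds counting error. Whether these smaller gaps exceed the spread between pools cannot be known with 1 pool per group.

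The parent message did not share this split. Rps18 held 7, 6, 4 and 3 counts (NTG, dC10mut, control, tt), so it was low in all 4 libraries and not lowest in NTG. How the counting treated strands and reads that match several places is not stated. The part of either in the low row of Rps18 or in the split of Rps18-ps4 was not tested. Of 33 genes of the small ribosomal subunit, all in the table, 21 had a count and 12 reached 10 counts in a library. None of the 33 was near 0 in a library and at 10 or more counts in another. Over all 9344 genes with a count, 81 (0.867%) were, out of 2476 that reached 10 counts in a library. Only the 12 that reached 10 counts could qualify, so the 0 does not set this list apart. Their summed counts were 277, 407, 326 and 284 (NTG, dC10mut, control, tt), or 1730, 2170, 1790 and 1470 CPM. NTG was lowest in raw sum and tt lowest once scaled, and neither was near 0.

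Between dC10mut and NTG, 1 of the 18 small-subunit genes with a count in that pair was at least 2-fold higher (Rps9, 20 and 48 counts) and 0 were lower, with a median log2 ratio of 0.46 against -0.11 over all genes. Between tt and control, 0 of 20 were higher and 1 was lower (Rps2, 6 counts in control and 0 in tt), with a median of -0.11 against -0.05 over all genes. Of 8 ribosomal protein pseudogenes in the table, 3 had a count. Besides Rps18-ps4 these were Rpl14-ps1, at 40, 50, 40 and 45 counts, and Rps19-ps3, at 0, 0, 1 and 0. Rpl14-ps1, the other well-counted pseudogene, was thus counted in NTG as in the rest.

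**Figure D1:**
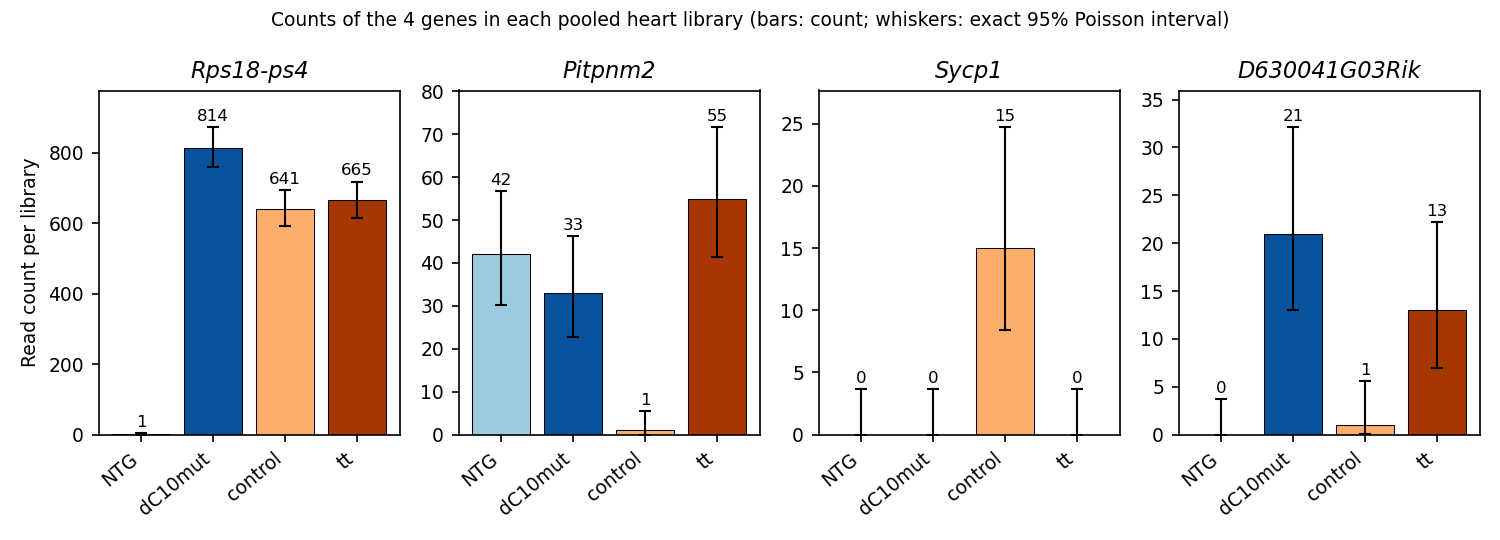
Read counts (vertical axis, a separate scale for each gene) of the 4 genes in the 4 pooled heart libraries; bars are the count of 1 library and whiskers its exact 95% Poisson interval. Rps18-ps4 is near 0 in NTG alone, Pitpnm2 in control alone, Sycp1 is above 0 in control alone, and D630041G03Rik is counted in dC10mut and tt.

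Gfm2 and Arhgef28, neighbours of Rps18-ps4 on chromosome 13, did not share its split. Gfm2, a mitochondrial translation factor, held 92, 119, 124 and 98 counts. Arhgef28, the nearest counted gene downstream at 137631 bp, held 2, 1, 1 and 1. Both were counted in NTG.

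Pitpnm2 held 42 counts in NTG and 33 in dC10mut, against 1 in control and 55 in tt (intervals 30.3 to 56.8, 22.7 to 46.3, 0.0253 to 5.57 and 41.4 to 71.6). In CPM this was 262, 176, 5.5 and 286. Only control is low, and the other 3 libraries overlap one another. The 2 FvB/N libraries held the highest and the lowest value, so the split does not follow the strain. The 2 control groups held 42 and 1, so it does not follow the genotype. As with Rps18-ps4, a single pool is apart, but it is another pool, and with the opposite strain label.

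The plain ratio of Pitpnm2 was 51.9-fold in tt over control, with an interval from 8.94-fold to 2090-fold. Control was 47.6-fold lower than NTG and 32.1-fold lower than dC10mut by the same measure. With the prior count of 0.5 the log2 ratios were 5.14 (plain interval 3.16 to 11.03), -4.97 (-10.91 to -3.02) and -4.45 (-10.35 to -2.42). A prior count of 2 brought the first to 4.19 and the second to -3.99. The size of these gaps again rests on 1 count. Between the other libraries the gaps were small. The log2 ratio of dC10mut over NTG was -0.56 (-1.27 to 0.12) and that of tt over NTG 0.12 (-0.48 to 0.74), neither beyond counting error, while tt was 1.62-fold higher than dC10mut (0.69, 0.05 to 1.37).

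All Pitpnm2 counts fell on 1 of 2 transcript rows. The counted row is NM_001289472 (chromosome 5, 124119747 to 124187182, minus strand, 25 exons, 5866 bp), and the other, NM_011256, was at 0 in all 4 libraries. Of the 5866 bp of the counted transcript, 406 bp (6.92%) are its own and the rest lie in exons of the other. Those 406 bp are exon 1, with 244 bp of noncoding sequence (124186939 to 124187182), and exon 17, with 162 bp, all coding (124124798 to 124124959). Reads from anywhere else in the transcript match both rows, and how such reads were counted is not stated. The coding exon is shown because it is the piece of Pitpnm2 coding sequence that the counted transcript alone carries. It is read on the minus strand, with all letters in lower case since nothing in it is singled out.

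Pitpnm2 exon 17: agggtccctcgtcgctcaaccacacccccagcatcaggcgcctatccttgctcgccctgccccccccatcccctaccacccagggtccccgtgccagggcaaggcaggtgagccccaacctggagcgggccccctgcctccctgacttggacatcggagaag

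None of the 308 windows of 50 bases within the sequence of its own occurs in another gene. No GENCODE exon lies opposite Pitpnm2, whereas the range of the RefSeq entry LOC115490137, on the plus strand, spans exon 1. The plot of exons sets this transcript beside those of Rps18-ps4 and Sycp1.

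**Figure D2:**
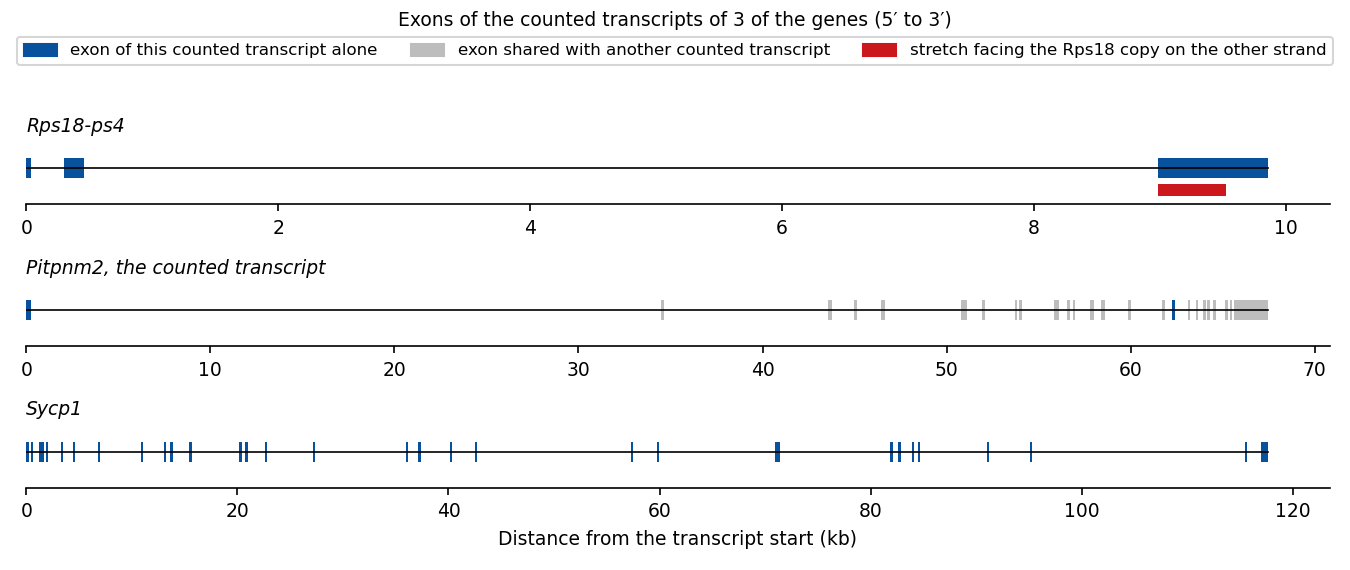
Exons of the counted transcripts of Rps18-ps4, Pitpnm2 and Sycp1, placed by distance from the transcript start in kb (horizontal axis, a separate scale for each gene). Short exons are drawn at a minimum width, so their widths are not to scale. Blue exons belong to that counted transcript alone, grey exons are shared in whole or in part with another counted transcript, and the red bar is the 541 bp of Rps18-ps4 that face the Rps18 copy; D630041G03Rik is not drawn because its transcript was not matched to annotated exons.

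The phosphatidylinositol genes around Pitpnm2 showed no such gap. Of 34 listed genes of phosphatidylinositol transfer and turnover, 33 were in the table, 13 had a count and 5 reached 10 counts in a library. Their summed counts were 98, 104, 92 and 123, or 611, 555, 506 and 639 CPM, lowest in control on both scales and not near 0. None was near 0 in a library and at 10 or more in another. Over all genes with a count 0.867% were, or 81 of the 2476 that reached 10 counts in a library. Only the 5 that reached 10 counts could qualify, so the 0 does not set this list apart. Pitpna, the soluble class I transfer protein, held 15, 24, 12 and 16 counts, and Pi4ka, the kinase that starts phosphoinositide synthesis at the plasma membrane, held 17, 16, 15 and 28. Vapb, an anchor of membrane contact sites, held 11, 17, 13 and 21, and Dgkd, a diacylglycerol kinase, held 15, 17, 15 and 15.

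The close relatives Pitpnm1 and Pitpnm3 held 1 count (in tt) and 0 counts. Between tt and control, 0 of 12 listed genes were at least 2-fold higher and 0 lower, with a median log2 ratio of 0.31 against -0.05 over all genes. Between dC10mut and NTG, 0 of 12 were higher and 1 was lower (Esyt1, a lipid-transferring tether, 18 and 7 counts), with a median of -0.17 against -0.11. Near Pitpnm2 on chromosome 5, Arl6ip4, which ends 494 bp from it, held 8, 13, 8 and 12 counts, and Cdk2ap1 held 5, 5, 5 and 8. Neither was low in control alone.

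Sycp1 held 15 counts in control (interval 8.4 to 24.7) and 0 in NTG, 0 in dC10mut and 0 in tt. In CPM this was 82.5 in control, while the zeros were set at a floor of 3 counts, or 18.7, 16.0 and 15.6 CPM. The exact intervals of the zeros end higher, at 3.69 counts, or 23.0, 19.7 and 19.2 CPM. Control alone is high, and it is the same library in which Pitpnm2 alone was low. The other FvB/N library held 0, as did the other control group, so neither strain nor genotype gives this split.

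Taking the 15 counts as they stand against that floor of 3, Sycp1 was at least 5.29-fold lower in tt than in control. Relative to NTG it was at least 4.41-fold higher in control, and relative to dC10mut at least 5.15-fold higher. With the counting error of the 15 counts included, the lower ends of the intervals were 3.8-fold, 3.16-fold and 3.69-fold. These are much looser bounds than the folds of Rps18-ps4, since 15 counts in a single library carry the whole pattern. The gene spans chromosome 3 from 102818499 to 102936100 on the minus strand, with 33 exons and 3437 bp. No exon of another gene faces it. Of its 3388 windows of 50 bases, 125 (3.69%) occur in a second gene, Sycp1-ps1, and the remainder are its own.

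The germ cell list was mostly at 0. Of 25 listed genes of the synaptonemal complex and meiotic recombination, 23 were in the table, 6 had a count and 17 were at 0 in all libraries. The sum per library, 973, 923, 1275 and 1093, came almost wholly from Sycp3, a component of the chromosome axis, at 968, 921, 1271 and 1093 counts. Sycp3 was well counted in all 4 libraries and highest in control, 1.42-fold above dC10mut (log2 ratio 0.51, 0.38 to 0.63), with tt below control (-0.3, -0.42 to -0.18); both gaps exceed counting error. Its exons lie opposite Chpt1, a phospholipid synthesis gene, so without the strand setting its reads cannot be told apart from those of Chpt1. Sycp2, the axis partner of Sycp3, held 2, 0, 0 and 0 counts. Smc1b, a meiotic cohesin, Spo11, which makes the meiotic breaks, and Prdm9, which places them, each held 1 count, in control alone. Meioc held 3, 2, 1 and 0.

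In this list, 0 of the 5 genes with a count in tt or control were called higher or lower (median log2 ratio -1.61 against -0.05 over all genes), and 0 of 3 between dC10mut and NTG (-0.67 against -0.11). Those medians are values of genes with 1 to 3 counts. Of 16 germ cell markers, 14 were at 0, among them Ddx4, Dazl, Tnp1 and Prm1, and the counted pair was Sycp3 and Sycp2. Among counted neighbours, Vangl1, a planar polarity gene, held 44, 22, 33 and 41, and Nras held 4, 5, 3 and 2. Neither was high in control alone.

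D630041G03Rik had 0 and 21 counts in the C57BL/6 libraries NTG and dC10mut, and 1 and 13 in the FvB/N libraries control and tt. The exact intervals of the 2 higher counts are 13.0 to 32.1 and 6.92 to 22.2, and they overlap each other but not the interval of 1 count, 0.0253 to 5.57. In CPM the levels were 0, 112, 5.5 and 67.5. The zero was set at a floor of 18.7 CPM, and its exact interval ends at 23.0. This is the 1 gene of the 4 whose split runs with the genotype label: both mutant libraries have it and both control libraries do not. The strain does not separate them, since each strain has 1 library with the gene and 1 without.

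Taking its 21 counts as they stand against the floor of 3, D630041G03Rik was at least 6.0-fold higher in dC10mut than in NTG, and the interval with their counting error ends at 4.46-fold. In the FvB/N libraries the plain ratio of tt over control was 12.3-fold, from 1.84-fold to 522-fold, and the log2 ratio with the prior count was 3.1 (plain interval 0.88 to 9.03), or 2.27 with a prior count of 2. The first fold is set against 3 counts and the second against the 1 count seen, so the pair cannot be compared in size. The mutant libraries did not differ from each other beyond counting error (tt over dC10mut -0.71, -1.85 to 0.33). The transcript lies on chromosome 7 from 4467245 to 4470884 on the minus strand. It falls within the ranges of Rdh13 and Eps8l1, both at 0 in all libraries. Tnni3, cardiac troponin I and one of the best counted genes nearby, held 783, 1079, 949 and 804 counts, and Ppp1r12c held 13, 17, 14 and 18, so the neighbourhood was counted in all 4 libraries.

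The same division of the libraries was seen at the Xist locus, from which the RNA that silences an X chromosome in female cells is made. Tsix, the antisense transcript of Xist, held 0, 147, 0 and 159 counts and Xist 0, 8, 0 and 14, which sums to 155 counts in dC10mut and 173 in tt. Exons of Tsix and Xist face each other, so without the strand setting their reads cannot be told apart. Ddx3y, a helicase gene of the Y chromosome, held 1, 0, 14 and 0 counts. Kdm5d held 0, 0, 1 and 0, and Eif2s3y and Uty were at 0. For D630041G03Rik, genotype and a difference in the sex of the pooled mice therefore cannot be told apart. For Sycp1, the library with its counts is also the one with 14 counts of Ddx3y, and the part of this in the result was not tested.

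The property that picked the 4 genes can be counted over all genes. Off means 1 count or fewer in a library, and on means 10 or more in another. Of the 9344 genes with a count, 81 (0.867%) qualified, and all 4 genes are among them by choice. Only the 2476 genes that reached 10 counts in a library could qualify, and among those the share is higher. The highest count of the 81 had a median of 11.0. It was under 20 in 75 of them and 50 or more in 3. Those 3 are, in falling order, Rps18-ps4, Tsix and Pitpnm2. Next came Inppl1, a phosphoinositide phosphatase, at 21, 37, 1 and 3 counts, followed by D630041G03Rik and Mrm1, a mitochondrial RNA methyltransferase (7, 21, 8 and 1), tied at 21. Sycp1, at 15, is 1 of the 15 genes with a highest count of 15 or more. At the limits of the rule, 30 genes qualified with a highest count of exactly 10, 39 missed it with a highest count of exactly 9, and 87 missed it with a lowest count of exactly 2; among those 87 no highest count exceeded 19. The plot of lowest against highest counts shows how far each of the 4 genes lies from these limits.

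**Figure D3:**
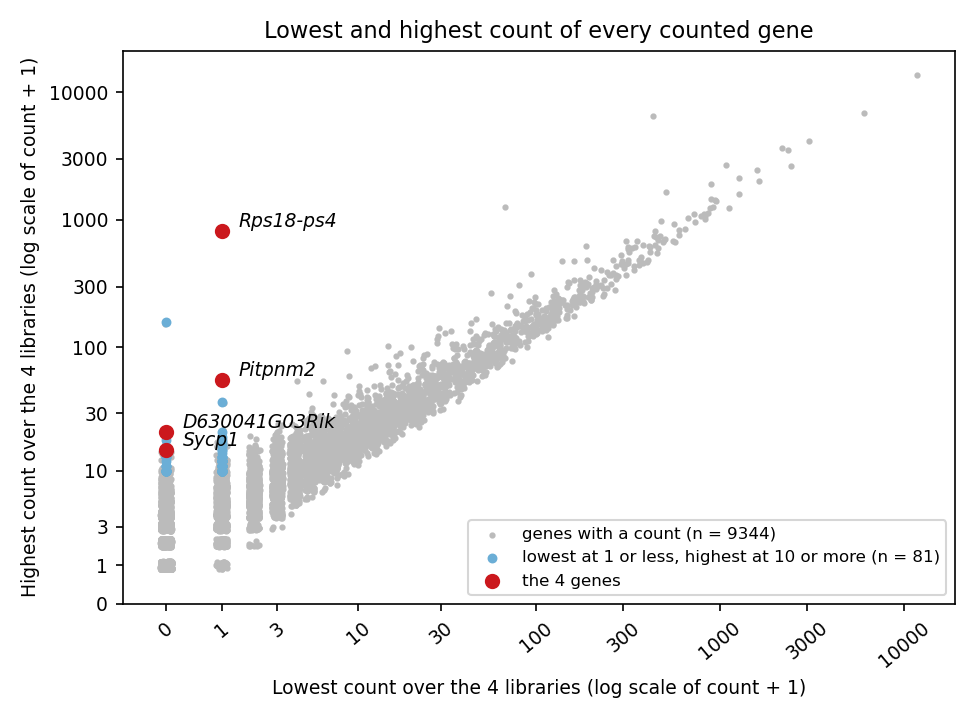
Lowest (horizontal axis) against highest (vertical axis) count over the 4 libraries for the 9344 genes with a count, both on a log scale of count + 1. The grey points are shifted slightly along both axes so that equal values can be seen. Blue points are the 81 genes at 1 or less in a library and 10 or more in another; red points are the 4 genes, of which Rps18-ps4, at a lowest count of 1 and a highest of 814, lies farthest from the other points.

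Of the 81 genes, 10 had all 4 libraries either off or on, and the other 71 had a library in between, at 2 to 9 counts. Among the 10, the strain label separated on from off in 0 and the genotype in 3, which are D630041G03Rik, Tsix and, in the opposite direction, Slc7a11, a cystine transporter, at 18, 1, 12 and 0 counts. A single library was on in 3 genes, each time control: Sycp1, Ddx3y and Cyp27a1, a sterol hydroxylase, at 1, 0, 10 and 0. A single library was off in 4 genes. In Rps18-ps4, Arhgap5 (1, 10, 10 and 14 counts) and Gm38396 (0, 10, 10 and 10) it was NTG, and in Pitpnm2 it was control. The 4 genes thus cover 3 of the ways of dividing the libraries, and none of them, nor any other of the 10, follows the strain label.

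The 71 others can be placed only by where their widest gap between libraries lies, a reading added after the data were seen. By it, the 81 genes divide into 2 along the strain (Inppl1 is 1 of them), 6 along the genotype, 1 crossed, 15 with 1 library high and 57 with 1 library low. The 4 genes keep their places under it. By library, 38 of the 81 genes were off in NTG, 22 in control, 20 in dC10mut and 16 in tt. NTG, with the most genes off, also had the lowest total count, and the part of depth in this was not tested.

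**Figure D4:**
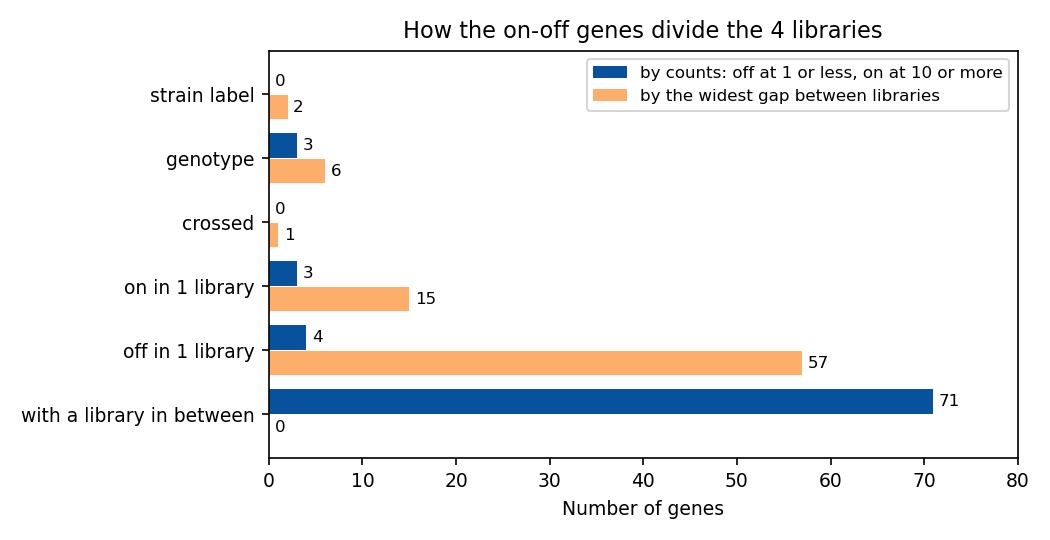
Number of genes (horizontal axis) among the 81 that divide the 4 libraries in each way (vertical axis), by counts alone (dark blue) and by the widest gap between libraries on the scaled log2 scale (orange). By counts alone 0 genes follow the strain label and 71 cannot be placed; by the widest gap 57 have 1 low library.

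Calls of at least 2-fold were counted the same way for each comparison, with the counting interval excluding equality. In the comparison of dC10mut with NTG, 2 of the 3 genes with a count there were higher (Rps18-ps4 and D630041G03Rik), against 1.81% of all 8033 genes with a count in that pair, and 0 were lower, against 2.53%. In that of tt with control, 2 of 4 were higher (Pitpnm2 and D630041G03Rik), against 2.7% of 8248 genes, and 1 was lower (Sycp1), against 1.58%. In that of control with NTG, 2 of 4 were higher (Rps18-ps4 and Sycp1), against 1.4% of 8152 genes, and 1 was lower (Pitpnm2), against 1.69%. Between tt and dC10mut, 0 of 3 were higher, against 1.73% of 8095 genes, and 0 were lower, against 1.49%. The genes were picked on these contrasts, so the counts only restate the choice. The comparisons also share libraries: NTG enters 2 of them, and so do the other libraries.

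For each of the 4 genes, the genes that divided their counts most like it were found among 2218 genes. These are the 2476 genes with at least 10 counts in a library less 258 that carry only a clone, Gm, Rik, LOC or accession name or are 1 of the 4. The measure is the share of scaled counts that would have to move between libraries to make 2 genes alike, from 0 for the same division to 1 for none in common. Over 4 libraries this describes a pattern and nothing about shared function or control. For Rps18-ps4, Mmachc, a vitamin B12 processing gene, was nearest at 0.0692, with 0, 9, 10 and 8 counts, where the median over the compared genes was 0.271. Mrpl34, a protein of the mitochondrial ribosome, followed at 0.0763 (3, 17, 13 and 12 counts) and Tspan3, a tetraspanin, at 0.0843 (5, 26, 17 and 20). All 3 were lowest in NTG, but the best counted of them reached 26 counts where Rps18-ps4 reached 814.

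For Pitpnm2, the nearest were Ddx23, a splicing helicase, at 0.0602 (12, 11, 3 and 18 counts), Hmgn1, a nucleosome-binding protein, at 0.0643 (6, 6, 1 and 10) and Dbndd1 at 0.068 (9, 9, 1 and 16), against a median of 0.281. For Sycp1, Ddx3y came first at 0.0749 and Cyp27a1 next at 0.102, after which the measure jumped to 0.408 for S100a6, a calcium-binding protein, at 1, 3, 10 and 3 counts (median 0.751). For D630041G03Rik, Cdnf, a neurotrophic factor, was nearest at 0.128 (1, 13, 3 and 10 counts) and Tsix next at 0.148. Mamdc4 followed at 0.15 (2, 14, 3 and 11) and Osbp, the oxysterol-binding protein, at 0.157 (3, 18, 3 and 16), against a median of 0.471. The fifth nearest gene lay at 0.0864 for Rps18-ps4 (Trabd2b), 0.0829 for Pitpnm2 (Ube2d-ps) and 0.163 for D630041G03Rik (Yipf4), but at 0.428 for Sycp1 (Mettl7b).

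**Figure D5:**
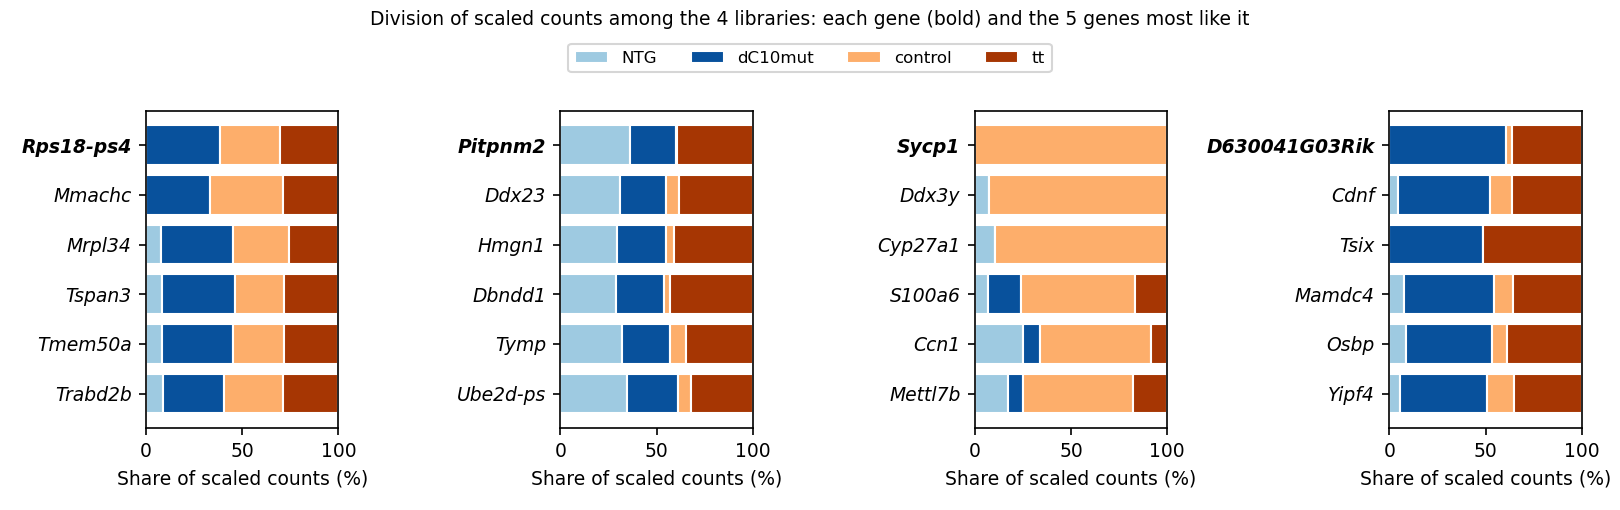
Division of scaled counts among the 4 libraries (horizontal axis, percent of the gene's scaled counts) for each of the 4 genes (top bar, bold) and the 5 genes most like it. In the Sycp1 panel only Ddx3y and Cyp27a1 lie wholly or almost wholly in control, while the genes most like Rps18-ps4 have a small share in NTG.

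In heart pools of this kind, fewer cells of a type and less RNA per cell cannot be told apart. Apart from the germ cell list with Sycp3, described above, the marker lists of other cell types summed to 5 counts or fewer per library. Neuron markers summed to 2 to 5 counts per library (2 of 9 counted), lymphocyte markers to 0 to 4 (3 of 11), lung markers to 0 to 2 (1 of 7) and skeletal muscle markers to 0 to 3 (2 of 8). All 7 adipocyte and all 7 erythroid markers were at 0. Since cardiac Tnnt2 and Myl3 were at 0 as well, a zero in these tables does not show that a cell type is absent.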

How the data were processed

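Poly(A) RNA of 4 pools of 3 mouse hearts was sequenced with a stranded kit, per the labels' protocols. The values are raw counts per RefSeq transcript as deposited by the authors; STAR, HTSeq and mm10 are named in the submitters' processing notes, and versions, strand setting and counting mode are not given in the sources used here. Of 41449 transcripts, 41351 were matched to a symbol and 98 were not, with names from RefSeq (GRCm38.p6) and exons and sequences from GENCODE M21 (GRCm38). Counts were summed per symbol. Library totals (170543 to 187365) were scaled with TMM factors of 0.940, 0.999, 1.03 and 1.03 (NTG, dC10mut, control, tt; edgeR 4.0.16, R 4.3.3). Log2 ratios used a prior count of 0.5 and exact Clopper-Pearson conditional binomial 95% intervals. These cover counting error only, since each group has 1 library. They treat reads as independent, which PCR copies are not, so they may be too narrow even for that. For bounds on folds, a count of 0 was set at a floor of 3 counts, which is below its exact upper limit of 3.69. The ratio was tested on simulated data with Poisson error only, in which well-counted genes alone were changed. Folds that rest on 0 or 1 count were outside that setting. With 1 library per group no p-value was computed. The 4 genes, the lists and the genes named were chosen with earlier results of these data known; besides the 4, the rule names the 5 genes most alike, counted neighbours within 3 on each side, opposite-strand genes and up to 4 examples per list. DESeq2 1.42.0 size factors, library totals and other limits were tried as alternatives. Reads were not analysed here.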

Additional observations from a re-analysis of the deposited data

Results flagged for a closer look

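For 2 of the genes the gap between mutant and control ran differently in the C57BL/6 and the FvB/N libraries. The log2 ratio of Rps18-ps4 was 8.9 for dC10mut over NTG and -0.03 for tt over control. That of Pitpnm2 was -0.56 for dC10mut over NTG and 5.14 for tt over control. In each case a single library, NTG for Rps18-ps4 and control for Pitpnm2, was near 0. With 1 library per group the difference between the pairs was not tested.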

How the results depend on the processing

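Alternative values of the 4 genes used library totals, DESeq2 size factors, a prior count of 2 or the most counted transcript alone. The prior count of 2 lowered the log2 ratios that rest on 1 count, as given above. All 49 alternative values kept their direction and stayed within the counting interval, or within 1.5 times for bounds. Those of the most counted transcript could not move, because all counts of each gene fell on 1 transcript row. Under library totals and DESeq2 size factors all 16 calls (called or not) held. The number of genes off in a library and on in another moved from 81 to 25 with off at 0 counts, 6 with on at 20, 13 with off at 3 and on at 20, 47 with counts scaled by TMM and 51 without the 26 genes that have an opposite-strand exon and 4 not placed on annotated exons; leaving out 1 library gave 46 to 53. Of the 4 genes, 2, 3, 3, 3 and 2 met these in turn (Rps18-ps4 has such an exon and D630041G03Rik is not placed), since Rps18-ps4 and Pitpnm2 hold 1 count in their lowest library, Sycp1 stops at 15, and 1 count in NTG scales to 1.13. Without NTG 3 of them qualified and without control 2, as Rps18-ps4, and then Pitpnm2 and Sycp1, lose the library that sets them apart. Leaving out the X and Y chromosomes, added after the data were seen, gave 76. Genes at least 2-fold lower in control than in NTG fell from 138 to 84 with library totals; the cause was not tested. No paired analysis was possible because each group has 1 library and no test was made. With 1 count worth 5.19 to 6.23 CPM, the depth cannot show differences among genes of a few counts.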
